A study of Homo sapiens with 54 samples.

Results

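RNA polymerase III was found before and after hormone at 273 places of the T47D genome that lie away from tRNA genes, and these places are described here. They are the regions of POLR3A, the largest subunit of the enzyme, in vehicle-treated cells on chromosomes 1 to 22 and X that shared at least 1 bp with a POLR3A region of R5020-treated cells and lay more than 200 bp from each of 443 annotated nuclear tRNA genes. They made up 273 of 688 vehicle POLR3A regions. Of the others, 300 were shared with R5020 and lay at tRNA genes, 108 were in the vehicle list alone and away from tRNA genes, and 7 were in the vehicle list alone at tRNA genes. The regions were thus chosen by their POLR3A values in both lists, so these values are a description and carry no test.

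T47D cells derive from a human breast cancer and express the estrogen and progesterone receptors. The cells were grown in serum-containing medium with insulin and given ethanol (vehicle) or the synthetic progestin R5020 for 1 h. Chromatin immunoprecipitation followed by sequencing was done for PR, POLR3A, Maf1, Brf1, acetylated lysine 27 of histone H3 (H3K27Ac), POLR3C, POLR3G and POLR3GL, with 3 libraries per antibody and treatment. The values come from 16 lists of regions, 1 per antibody and treatment, so no value has a replicate error and the depth is unknown. The titles and treatment tags disagree for 4 libraries, titled R5020 but tagged ethanol: 2 of POLR3C, 1 of POLR3G and 1 of POLR3GL. Lists differed in length: Brf1 had 370 regions with vehicle and 1157 with R5020, PR 6662 and 173115, Maf1 3048 and 22638, and H3K27Ac 88869 and 112542.

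RNA polymerase III makes short untranslated RNAs. Its genes are sorted by promoter: the 5S ribosomal RNA genes (type 1) carry their control elements inside the gene, tRNA, vault, 7SL and BC200 genes (type 2) carry internal A and B boxes, and 7SK, U6, RNase P, RNase MRP and Y RNA genes (type 3) rely on a TATA box and a proximal sequence element before the gene. Brf1 belongs to the initiation factor of types 1 and 2, and type 3 genes use Brf2 in its place. Maf1 represses the enzyme, POLR3C and the paralogs POLR3G and POLR3GL are its subunits, PR is the receptor that binds R5020, and H3K27Ac marks active promoters and enhancers.

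Promoter sequence was at hand for 13 members, those reached by the 300-base window that the RefSeq table (GRCh38.p14) gives around the start of a neighbouring gene. The following stretches are printed 5′ to 3′, each the part of such a window that lies inside the POLR3A region. The first 3 come from type 3 genes, the fourth from a type 2 gene, and the last from the region with the strongest R5020 PR region of all members. The windows are those of PARP2 (beside RPPH1), CCDC107 (beside RMRP), MED16 (beside RNU6-9), LOC105378198 (over VTRNA1-1) and DNALI1, and the strand is that of the window's gene. Capitals mark TTATA (the core of a TATA box), ATTTGCAT (the octamer) and GTTCGANNC (the core of a B box), each on either strand.
RPPH1 (chr14:20343385-20343545, plus strand): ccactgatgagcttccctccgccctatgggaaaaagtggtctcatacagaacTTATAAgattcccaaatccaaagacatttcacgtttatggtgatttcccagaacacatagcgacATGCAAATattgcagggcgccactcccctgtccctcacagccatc
RMRP (chr9:35658042-35658257, plus strand): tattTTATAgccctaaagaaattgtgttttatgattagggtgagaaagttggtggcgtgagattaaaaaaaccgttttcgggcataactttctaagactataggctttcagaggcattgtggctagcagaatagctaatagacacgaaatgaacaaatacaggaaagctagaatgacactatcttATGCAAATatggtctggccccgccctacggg
RNU6-9 (chr19:893233-893437, minus strand): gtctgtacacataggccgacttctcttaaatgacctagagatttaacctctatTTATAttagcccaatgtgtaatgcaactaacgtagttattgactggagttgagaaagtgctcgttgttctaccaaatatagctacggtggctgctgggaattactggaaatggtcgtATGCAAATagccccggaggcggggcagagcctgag
VTRNA1-1 (chr5:140711050-140711325, plus strand): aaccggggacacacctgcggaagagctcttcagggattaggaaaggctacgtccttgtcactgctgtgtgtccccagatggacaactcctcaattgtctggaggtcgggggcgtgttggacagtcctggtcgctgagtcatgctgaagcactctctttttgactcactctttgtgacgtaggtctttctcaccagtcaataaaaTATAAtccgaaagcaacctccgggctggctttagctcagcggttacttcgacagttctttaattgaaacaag
DNALI1 (chr1:37556690-37556894, plus strand): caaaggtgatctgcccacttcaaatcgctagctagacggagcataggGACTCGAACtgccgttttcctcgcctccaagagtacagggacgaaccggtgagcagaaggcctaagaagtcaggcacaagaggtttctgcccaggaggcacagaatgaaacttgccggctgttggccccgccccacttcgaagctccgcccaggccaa

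TTATA lay 26 bases from the nearer annotated end of RPPH1, the RNA of RNase P, and 27 bases from that of RMRP, the RNA of RNase MRP. The octamer lay 90 bases from the end of RPPH1 and 208 from that of RMRP. At RNU6-9, a U6 spliceosomal RNA gene, the octamer lay 217 bases away and a TTATA 100 bases away. At VTRNA1-1, a vault RNA gene, TTATA lay on the other strand, 18 bases from the gene. The stretch at DNALI1, an axonemal dynein gene, held the B box core on the other strand. Of the 13 windows, 5 held TTATA, 3 the octamer, 1 the B box core and 1 the A box core TGGCNNAGT, which overlapped no other motif. Among 35116 windows of the same length in the table, TTATA was in 20.4%, the octamer in 1.77%, the B box core in 0.829% and the A box core in 3.43%. TTATA and its reverse complement overlapped at RPPH1. A match is a run of letters and not a measured binding site.

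The 273 regions had a median width of 329 bp (156 to 1340) and a median POLR3A fold of 7.69 with vehicle (1.30 to 58.0), where fold is the authors' enrichment at the region's summit. With R5020 the median was 7.90 (1.69 to 71.4). Folds are on separate scales in each list and are compared only within a list. In the vehicle list the members had a median percentile of 43.2, against 76.2 for the stable regions at tRNA genes and 17.7 for regions away from tRNA genes that were in the vehicle list alone. The summit moved by 50 bp or less between treatments at 212 of the 273. The members nearest to a tRNA gene lay 224 bp (vehicle fold 33.0) and 505 bp away (34.5), and the farthest regions within the limit lay 6 bp (18.0) and 0 bp away (54.8). By annotation, 54 members lay within 200 bp of a polymerase III gene and 33 within 200 bp of an annotated copy of one. A further 25 lay no more than 1 kb from either end of a protein-coding gene, 33 elsewhere within such a gene, 41 over another annotated gene or pseudogene, and 87 over none.

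**Figure D1:**
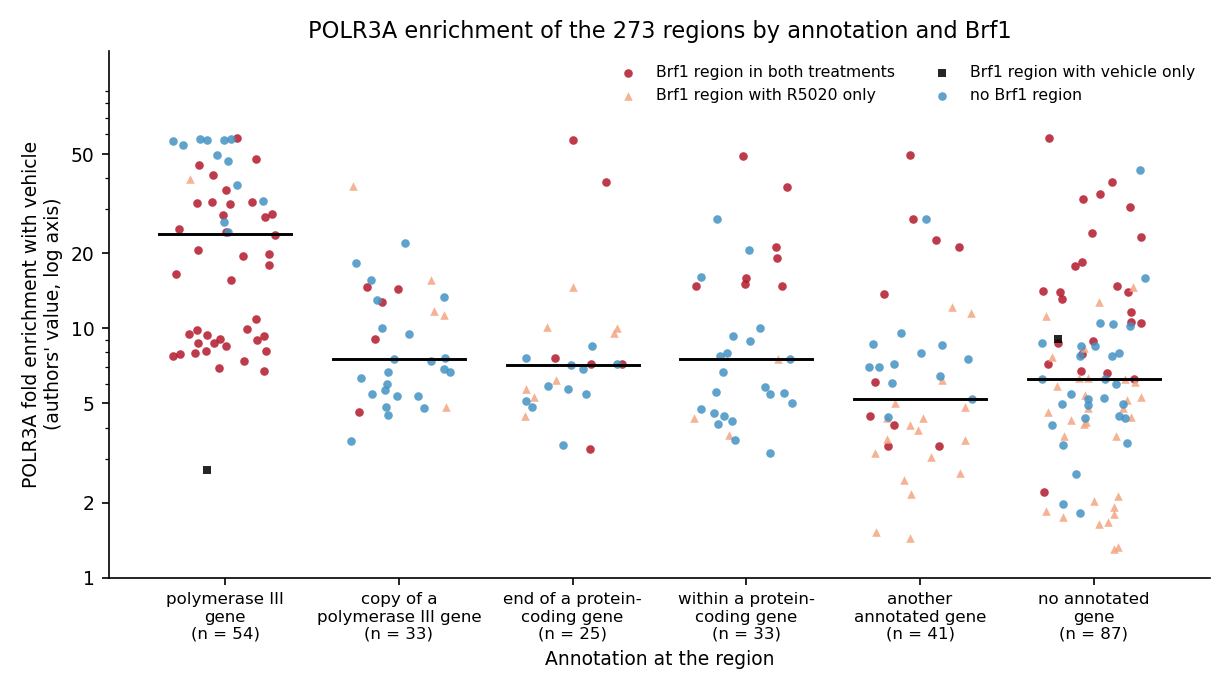
POLR3A fold with vehicle (authors' value, log axis) of each of the 273 regions by annotation, 1 point per region, with the class median as a line. Polymerase III genes had a median of 24.0, and the other 5 classes had medians between 5.23 and 7.55, with highest values between 37.2 and 58.0.

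Brf1 was found at a smaller share of the members than of the tRNA regions. The tRNA regions were wider (median 637 bp against 329 bp) and had a higher median vehicle POLR3A fold (36.7 against 7.69). How far width and fold bear on the differences between these sets was not tested. With vehicle, 96 of 273 members had a Brf1 region (35.2%, 95% Wilson interval 29.7 to 41.0), against 50.6% of all vehicle POLR3A regions and 246 of 300 stable regions at tRNA genes (82.0%). The difference from the tRNA regions was -46.8 percentage points (95% Newcombe interval -53.5 to -39.3). With R5020, 161 members had one (59.0%, 53.1 to 64.6), against 64.7% of all vehicle POLR3A regions and 256 tRNA regions (85.3%), a difference of -26.4 points (-33.3 to -19.2), or -46.3 (-53.1 to -38.6) with equal numbers of top Brf1 regions from each list. These intervals, and all others here, cover the counting error of regions only, and neighbouring regions of an array are not independent. Brf1 was at 94 members in both treatments, at 67 with R5020 only, at 2 with vehicle only and at 110 in neither. The members with Brf1 in both had a median vehicle POLR3A fold of 14.3, those with Brf1 under R5020 only 4.79, and those without Brf1 6.92.

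The share of members with Brf1 was 23.8 points higher with R5020 than with vehicle (18.4 to 28.9), and that of tRNA regions was 3.33 points higher (0.477 to 6.34). Few tRNA regions lacked Brf1 at the start. Among regions without vehicle Brf1, 67 of 177 members (37.9%) and 14 of 54 tRNA regions (25.9%) had Brf1 with R5020, 11.9 points apart (-2.76 to 24.2, an interval that includes 0). The R5020 list of Brf1 was the longer one. With equal numbers of Brf1 regions from each list, those of highest -log10 q, the R5020 share of members was below the vehicle share by 4.76 points (R5020 minus vehicle -4.76, -8.90 to -0.611). The difference was 14.7 points (9.07 to 20.1) at a POLR3A fold of at least 5 and 11.7 (7.09 to 16.3) with 50% of both regions shared.

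PR was at 41 members with vehicle (15.0%, 11.3 to 19.7), against 10.9% of all vehicle POLR3A regions, and at 89 with R5020 (32.6%, 27.3 to 38.4), against 30.4%. The vehicle share was 12.0 points above that of the tRNA regions (9 of 300, interval 7.45 to 16.9). This difference was 7.03 points (2.49 to 12.6) at a POLR3A fold of at least 5, 6.96 (4.19 to 10.6) with 50% of both regions shared, and 6.90 (2.56 to 12.1) without the arrays. The R5020 share did not differ from theirs detectably (97 of 300, difference 0.267 points, -7.35 to 7.93). PR was at 21 members in both treatments, at 68 with R5020 only and at 20 with vehicle only, while none of the 9 tRNA regions with vehicle PR lacked it with R5020. The R5020 share of members was 17.6 points above the vehicle share (11.1 to 24.0), with equal numbers of top PR regions the difference was -9.16 (-14.4 to -4.07), and with 50% of both regions shared it was 1.83 (-2.20 to 5.95). Without the arrays of repeated genes it was 29.7 (22.1 to 37.0), from 19 and 76 of 192 members.

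Maf1 was at 28 members with vehicle (10.3%, 7.19 to 14.4), against 7.41% of all vehicle POLR3A regions, and at 74 with R5020 (27.1%, 22.2 to 32.7), against 24.9%. The difference between treatments was 16.8 points (12.0 to 21.9), -5.13 (-9.23 to -1.30) when both Maf1 lists were cut to the same number of top regions, and 1.83 (-1.66 to 5.46) with 50% of both regions shared. The vehicle share was 5.59 points above that of the tRNA regions (14 of 300, interval 1.29 to 10.2). This difference was 3.04 points (-1.07 to 7.60) at a POLR3A -log10 q of at least 5, 0.207 (-3.74 to 4.92) at a fold of at least 5 and 1.58 (-2.42 to 6.32) without the arrays. The R5020 share differed from that of the tRNA regions by 1.11 points (-6.09 to 8.35). PR and Maf1 shared members: with R5020, 43 regions had both, which is 43 of the 89 with PR and 43 of the 74 with Maf1. Among the 184 members without R5020 PR, 31 had R5020 Maf1 (16.8%), against 48.3% of those with PR. The difference was 31.5 points (19.7 to 42.7). Neither all vehicle POLR3A regions nor the tRNA regions were split in this way. Median widths were 395 bp for members with R5020 PR and 294 bp for those without.

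H3K27Ac was at 122 members with vehicle (44.7%, 38.9 to 50.6), against 42% of all vehicle POLR3A regions, and at 118 with R5020 (43.2%), against 40.3%. The shares differed from those of the tRNA regions by 2.36 points (-5.73 to 10.4) with vehicle and 4.22 (-3.81 to 12.2) with R5020. When the acetylated region had to cover the POLR3A summit, members stood 14.6 points (7.18 to 21.9) and 18.2 points (11.0 to 25.3) above the tRNA regions. Of the 122 members with vehicle H3K27Ac, 71 had R5020 PR (58.2%), against 18 of the 151 without (11.9%). The difference was 46.3 points (35.5 to 55.7). For vehicle Brf1 the same split gave 43 of 122 and 53 of 151, a difference of 0.147 points (-11.0 to 11.5). R5020 PR was at 30.4% of all vehicle POLR3A regions, but neither these nor the tRNA regions were split by acetylation. Median widths were 407 bp with vehicle H3K27Ac and 285 bp without, and the effect of width was not tested.

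The second set of antibodies gave lists of unlike length, so shares are not compared between subunits. POLR3G had 58423 regions with vehicle and 46874 with R5020, POLR3C 666 and 693, and POLR3GL 1104 and 603. POLR3G was at 105 members with vehicle (38.5%, 32.9 to 44.4), against 42.3% of all vehicle POLR3A regions, and at 101 with R5020 (37.0%), against 39.8%. POLR3C was at 32 (11.7%), against 16.7%, and at 29 (10.6%), against 17.6%. POLR3GL was at 0 members with vehicle, against 0% of all vehicle POLR3A regions, and at 2 with R5020 (0.733%), against 1.45%. The 2 were at VTRNA1-2 and beside PPP6R3. Vehicle POLR3G was at 79 of the 122 members with vehicle H3K27Ac (64.8%) and at 26 of the 151 without (17.2%). That difference was 47.5 points (36.4 to 57.0). Neither all vehicle POLR3A regions nor the tRNA regions were split by acetylation here. Median widths were 407 bp for members with vehicle H3K27Ac and 285 bp for those without, and the effect of width was not tested. The members had POLR3G less often than the tRNA regions by 15.9 points with vehicle (members minus tRNA -15.9, -23.7 to -7.70) and POLR3C by 14.6 (-14.6, -20.8 to -8.23). For POLR3C the sign turned to 2.56 points (-1.05 to 6.43) when at least 50% of each region had to lie in the other. The differences between treatments all had intervals that include 0, and the R5020 lists of these 3 subunits hold the libraries tagged as ethanol.

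**Figure D2:**
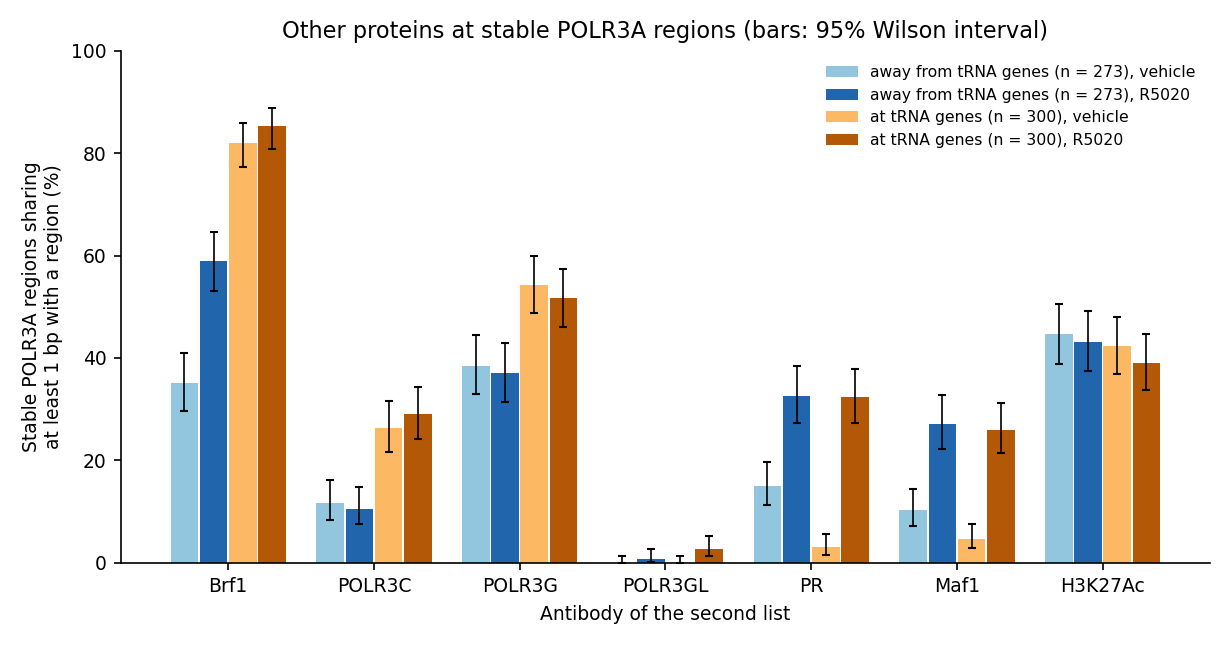
Share (%) of stable POLR3A regions away from tRNA genes (n = 273) and at tRNA genes (n = 300) that share at least 1 bp with a region of each other list, by treatment, with 95% Wilson intervals as bars. Brf1 stood at 35.2% and 59.0% of the members and at 82.0% and 85.3% of the tRNA regions, while the R5020 shares of PR (32.6% and 32.3%) and Maf1 (27.1% and 26.0%) were close in the 2 sets.

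The 13 members at type 3 genes were the U6 genes RNU6-1, RNU6-2, RNU6-7, RNU6-8 and RNU6-9, the minor-spliceosome gene RNU6ATAC, RN7SK, RMRP, RPPH1, and the Y RNA genes RNY1, RNY3, RNY4 and RNY5. Their vehicle POLR3A folds ran from 24.5 to 57.6 (median 49.8) and their R5020 folds from 19.5 to 71.1 (median 63.2). None had Brf1 with vehicle, and with R5020 only RNU6-1 did (Brf1 fold 9.23), against 50.6% and 64.7% of all vehicle POLR3A regions. The list of type 2 genes held the vault genes, RN7SL1, RN7SL2, BCYRN1 and the SNAR genes and left out RN7SL3, and 23 of its genes had a member. All 23 had Brf1 with vehicle, and the lower bound of the difference was 73.1 points (73.3 with RN7SL3, 24 of 24). Outside arrays, RN7SL3 included, vehicle Brf1 was at 7 of 7 type 2 genes, with a lower bound of 57.9 points. PR was at 1 of the 13 with vehicle, RNU6-1, against 10.9% of all vehicle POLR3A regions. With R5020 it was at 12, all but RNY4, against 30.4%. Among type 2 genes, 5 of 23 had R5020 PR (6 of 24 with RN7SL3), and the 17 SNAR genes, which lie in arrays, had it at 0. Outside arrays, R5020 PR was at 6 of 7 type 2 genes, RN7SL3 included, a difference from the type 3 genes that was not detectable with so few genes (type 2 minus type 3 -6.59 points, -44.2 to 21.6).

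The R5020 PR fold at these 12 genes ran from 3.55 at RNY5 to 33.8 at RNU6-7, with a median of 12.1. RNU6-9, whose promoter is printed above, had an R5020 PR fold of 14.9, RPPH1 12.1 and RMRP 6.54. H3K27Ac was at 13 of 13 with vehicle, against 42% of all vehicle POLR3A regions, and at 11 with R5020, against 40.3%. The 2 that were not in the R5020 list were RNY3 (vehicle H3K27Ac fold 2.60) and RNY4 (5.21). Maf1 was at 1 with vehicle, RN7SK, the gene of the 7SK RNA that holds the elongation factor P-TEFb inactive, and at 5 with R5020: RN7SK, RNU6-1, RNU6-2, RNU6-8 and RPPH1. The Maf1 shares over all vehicle POLR3A regions were 7.41% with vehicle and 24.9% with R5020. POLR3G was at all but RPPH1 in both lists, against 42.3% of all vehicle POLR3A regions with vehicle and 39.8% with R5020. The type 3 regions had a median width of 707 bp, against 329 bp for all members, and the effect of width was not tested. The 4 Y RNA genes, whose RNAs bind the Ro60 protein, sit side by side on chromosome 7 and had vehicle POLR3A folds of 46.8 to 57.6.

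**Figure D3:**
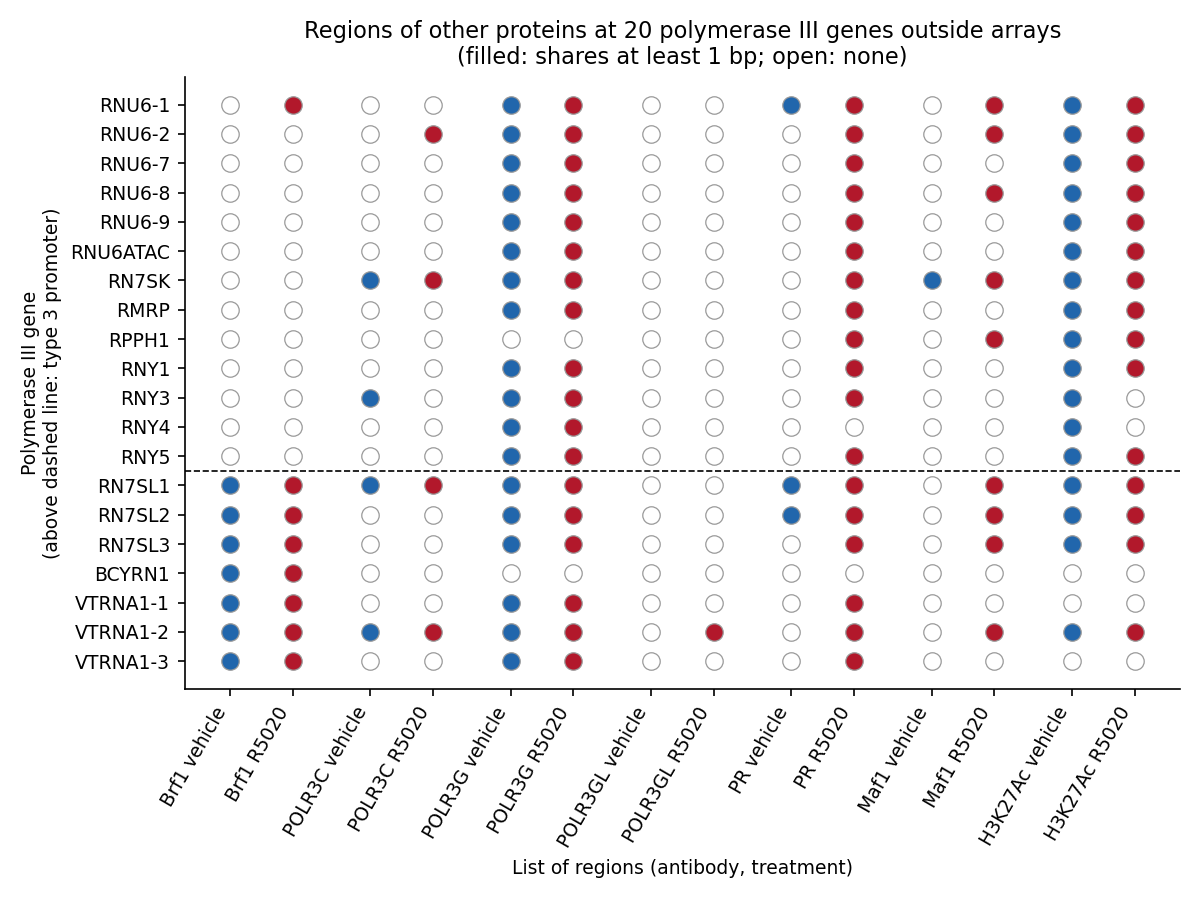
Regions of 7 other antibodies at the 20 polymerase III genes outside arrays, 1 row per gene and 1 column per list, with a filled circle where a region shares at least 1 bp with the POLR3A region (blue vehicle, red R5020). Above the dashed line, the 13 type 3 genes have no vehicle Brf1, and 12 have R5020 PR. The shares over all vehicle POLR3A regions are 50.6% for vehicle Brf1 and 30.4% for R5020 PR.

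The other 7 genes outside arrays had Brf1 in both treatments. The vault RNA genes VTRNA1-1, VTRNA1-2 and VTRNA1-3, whose RNAs belong to the vault particle, had vehicle POLR3A folds of 48.0, 41.2 and 58.0 and Brf1 in both treatments. R5020 PR was at all 3 genes, with folds of 2.73, 38.4 and 6.18. VTRNA1-2 alone among them had Maf1 (R5020 fold 5.36), H3K27Ac, POLR3C and, with R5020, POLR3GL (fold 3.12). The 3 annotated VTRNA2 and VTRNA3 entries had no POLR3A region in either list.
The genes of 7SL RNA, the RNA of the signal recognition particle, were RN7SL1, RN7SL2 and RN7SL3, with vehicle POLR3A folds of 45.2, 19.5 and 15.6. Each had Brf1, POLR3G and H3K27Ac in both treatments, and PR and Maf1 with R5020. PR was also at RN7SL1 and RN7SL2 with vehicle (folds 3.72 and 2.98). BCYRN1, the gene of the brain cytoplasmic RNA BC200, had a vehicle POLR3A fold of 35.9 and an R5020 fold of 23.4. It had Brf1 in both treatments (folds 9.62 and 22.8) and no other region in any list.

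Few annotated copies of these genes had a member. One lay at 18 of 504 annotated 5S copies, 7 of 1269 U6 copies, 4 of 292 7SK copies, 2 of 681 7SL copies and 0 of 75 Y RNA copies, against 17 of 17, 5 of 5, 1 of 1, 3 of 3 and 4 of 4 of the genes. The 33 copies had a median vehicle POLR3A fold of 7.55. The highest were RN7SL5P within PTPRD (37.2), RN7SKP71 within HECTD4 (22.0), RN7SL4P within ANKRD28 (18.4), RN7SKP203 (15.6) and RNA5SP202 (15.6). Brf1 was at 5 of the 33 with vehicle and at 10 with R5020, H3K27Ac at 2 in each, and PR at 0 and 3. Over all vehicle POLR3A regions, Brf1 was at 50.6% and 64.7%, H3K27Ac at 42% and 40.3%, and PR at 10.9% and 30.4%. The regions at copies had a median width of 250 bp, against 329 bp for all members, and the effect of width was not tested. Of the 33, 20 shared sequence with no region of any other antibody. Reads from near-identical copies can be placed at the wrong copy, so the identity of a copy is uncertain, and the same holds for the 5S, U6, 7SL and SNAR genes.

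All 17 annotated 5S genes (RNA5S1 to RNA5S17) had a member, and with the copy RNA5SP19 and 4 regions between or beside them they formed an array of 22 regions at chr1:228555665-228646596. Their vehicle POLR3A fold ran from 6.75 at RNA5S6 to 10.9 at RNA5S16, and the R5020 fold from 9.84 at RNA5S17 to 16.3 at RNA5S16. All 17 had Brf1, POLR3G and H3K27Ac in both lists, and POLR3C was at 16 with vehicle and 15 with R5020. PR was at 6 of the 17 with vehicle and 1 with R5020, with folds of 1.76 to 2.54. Maf1 was at 4 with vehicle and 13 with R5020, with folds of 1.81 to 2.90. Among all vehicle POLR3A regions, vehicle Brf1 was at 50.6%, POLR3G at 42.3%, H3K27Ac at 42%, POLR3C at 16.7%, PR at 10.9% and Maf1 at 7.41%. With R5020 these shares were 64.7%, 39.8%, 40.3%, 17.6%, 30.4% and 24.9%. The regions at the 17 genes had a median width of 934 bp, against 329 bp for all members, and the effect of width was not tested. The lowest R5020 PR fold at the type 2 and type 3 genes was 2.73, against 1.76 at the single 5S gene with R5020 PR.

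The SNAR genes, primate-specific small RNA genes of type 2, formed a pair of arrays on chromosome 19, at chr19:47904192-47957764 with 15 regions and chr19:50092261-50139455 with 21. Of 28 annotated SNAR genes, 17 had a member: SNAR-A1 to SNAR-A14, SNAR-B1, SNAR-B2 and SNAR-C3. In the second array regions at SNAR genes alternated with regions that held none. There the 11 SNAR regions had vehicle POLR3A folds of 16.5 to 32.1 and the 10 others 4.27 to 13.7. The median over all 273 members was 7.69, and these folds come from a list by which the members were chosen. In the first array SNAR-A1, SNAR-A3 and SNAR-A2 had 23.7, 20.6 and 18.0, whereas SNAR-A12, SNAR-A13 and SNAR-C3 had 7.97, 8.74 and 2.70, against 4.08 to 7.18 for the 9 others. Brf1 was at 17 of 17 SNAR regions with vehicle and 16 with R5020, and at 6 and 15 of the 19 others. Over both arrays PR was at 0 regions with vehicle and 1 with R5020, Maf1 at 0 and 1, and H3K27Ac at 1 and 0. All vehicle POLR3A regions had Brf1 at 50.6% with vehicle and 64.7% with R5020, and PR at 10.9% and 30.4%. They had Maf1 at 7.41% and 24.9%, and H3K27Ac at 42% and 40.3%.

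**Figure D4:**
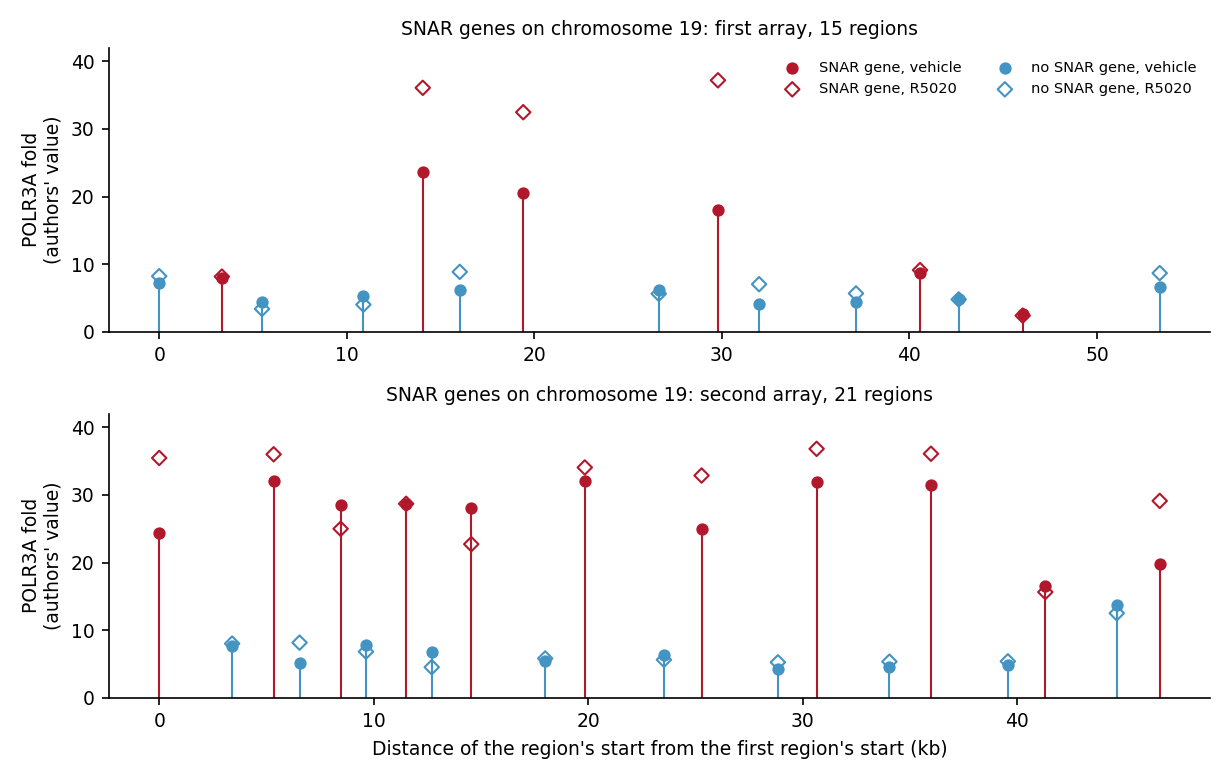
POLR3A fold (authors' value, linear axis) of the regions of the 2 SNAR arrays against distance in kb from the array's first region, at SNAR genes (red) and elsewhere (blue), with vehicle as dots on stems and R5020 as open diamonds. In the second array the 11 SNAR regions stand at 16.5 to 32.1 with vehicle and the 10 between them at 4.27 to 13.7.

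The other 3 arrays lay over other repeated genes. On chromosome 21, 18 members lay in or beside the 45S ribosomal RNA genes RNA45SN1, RNA45SN2 and RNA45SN3, which RNA polymerase I transcribes, as arrays of 9 and 9. Their vehicle POLR3A folds ran from 2.59 to 6.11, and none had POLR3C or POLR3G. PR was at 8 and 4 of them with vehicle and at 7 and 3 with R5020, and Maf1 at 6 and 3 and then 9 and 6. By comparison, all vehicle POLR3A regions had PR at 10.9% with vehicle and 30.4% with R5020, and Maf1 at 7.41% and 24.9%. Their vehicle shares of POLR3C and POLR3G were 16.7% and 42.3%. These 18 regions and the 5S array held 19 of the 41 members with vehicle PR. On chromosome 10, 5 members lay among copies of DUX4L, a repeated homeobox gene family, with vehicle folds of 1.82 to 3.05. In all, 6 arrays of at least 5 members no more than 100 kb apart held 81 members, and 159 members stood alone. Repeated units share reads, so the number of separate sites in an array is uncertain.

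At ends of protein-coding genes, 24 of 25 members had H3K27Ac in each list, 20 had R5020 PR (4 with vehicle) and 18 vehicle POLR3G. R5020 Brf1 was at 14 (6 with vehicle) and R5020 Maf1 at 9. Of all vehicle POLR3A regions, 42% had vehicle H3K27Ac, 40.3% R5020 H3K27Ac, 30.4% R5020 PR and 10.9% vehicle PR. Vehicle POLR3G was at 42.3% of them, R5020 Brf1 at 64.7%, vehicle Brf1 at 50.6% and R5020 Maf1 at 24.9%. Gene ends without a POLR3A region were not examined. The 25 members had a median vehicle POLR3A fold of 7.10, and 2 stood far above it. POLR3E, the gene of a polymerase III subunit, had a member at chr16:22298047-22298907 with a vehicle POLR3A fold of 56.9 and an R5020 fold of 65.9. It had Brf1 (folds 37.8 and 76.8), POLR3G and H3K27Ac in both treatments, and PR (21.7) and Maf1 (6.32) with R5020. An intron of POLR3E is known to hold a mammalian-wide interspersed repeat that polymerase III transcribes. The region at chr11:68459678-68460559, 193 bp from PPP6R3, which encodes a phosphatase regulatory subunit, had vehicle and R5020 folds of 38.5 and 36.8. It had Brf1 (26.1 and 75.6), PR (36.9 with R5020) and all of the other antibodies in at least 1 treatment.

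The next highest at gene ends were FDXACB1 (vehicle POLR3A fold 14.6), NUP85, a nuclear pore gene (10.1), and FAM220A with SMIM10L3 (10.0), each with Brf1 under R5020 only. The member without H3K27Ac in either list was the 1173-bp region at HBB, the beta-globin gene, named after its values were seen. It had a vehicle POLR3A fold of 7.22, Brf1 (13.1 and 28.3), PR (12.3 and 17.9) and Maf1 (3.37 and 6.91) in both treatments.

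Outside the polymerase III genes and their annotated copies, a fold of 20 or more was reached with vehicle by 20 members. Of these, 16 had Brf1 in both treatments and 4 in neither, against 94 and 110 of all 273 members. The highest of the 20 was chrX:47802382-47803086, 61 bp from the pseudogene WASF4P, with POLR3A folds of 58.0 and 71.4. It had Brf1 folds of 42.8 and 81.0 and an R5020 PR fold of 37.0. Within genes, HSD17B11, a steroid dehydrogenase gene, had 49.3 with vehicle (chr4:87363530-87364033), PALM2AKAP2 37.0 (chr9:109705531-109706021) and C1QTNF6 21.2. All 3 had Brf1 in both treatments and no PR, Maf1 or H3K27Ac. Regions without a gene over them included chr3:190424484-190425251 (38.5), chr14:20630193-20630655 (34.5, 505 bp from the tRNA gene TRT-TGT4-1) and chr1:161612253-161613130 (33.0, 224 bp from TRL-CAA6-1), each with Brf1 in both.

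Annotated tRNA pseudogenes were not counted as tRNA genes, and 5 members lay within 200 bp of one. TRS-ACT1-1 (chr6:27293684-27294188) had vehicle and R5020 POLR3A folds of 49.6 and 50.3 and Brf1 folds of 20.6 and 30.4. TRQ-CTG9-1 had POLR3A folds of 22.6 and 19.8 and Brf1 in both treatments. TRK-CTT14-1, within OR1F1, had 16.1 and 14.0 and no region of any other antibody. Over other annotated genes, LOC100189498 had 27.6 and 60.4 with Brf1 in both, and LOC107984369 had 21.2 and 20.2 with Brf1 in both.

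The 4 of these 20 members with Brf1 in neither list were singled out after their values were seen. The region chr5:172303799-172304243 lay 5423 bp from the nearest annotated gene and had POLR3A folds of 43.3 and 42.7. LYPLAL1-AS1 (chr1:219528273-219528687) had 27.5 and 26.9, SYNPO2 (chr4:118969283-118969611) 27.4 and 19.6, and OSBPL8 (chr12:76455406-76455794) 20.6 and 24.2. Apart from weak vehicle H3K27Ac at LYPLAL1-AS1 (fold 2.79) and OSBPL8 (3.54), none shared sequence with a region of another antibody. Of all members, 54 shared sequence with no other list, with vehicle POLR3A folds of 3.42 to 43.3 (median 6.92).

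**Figure D5:**
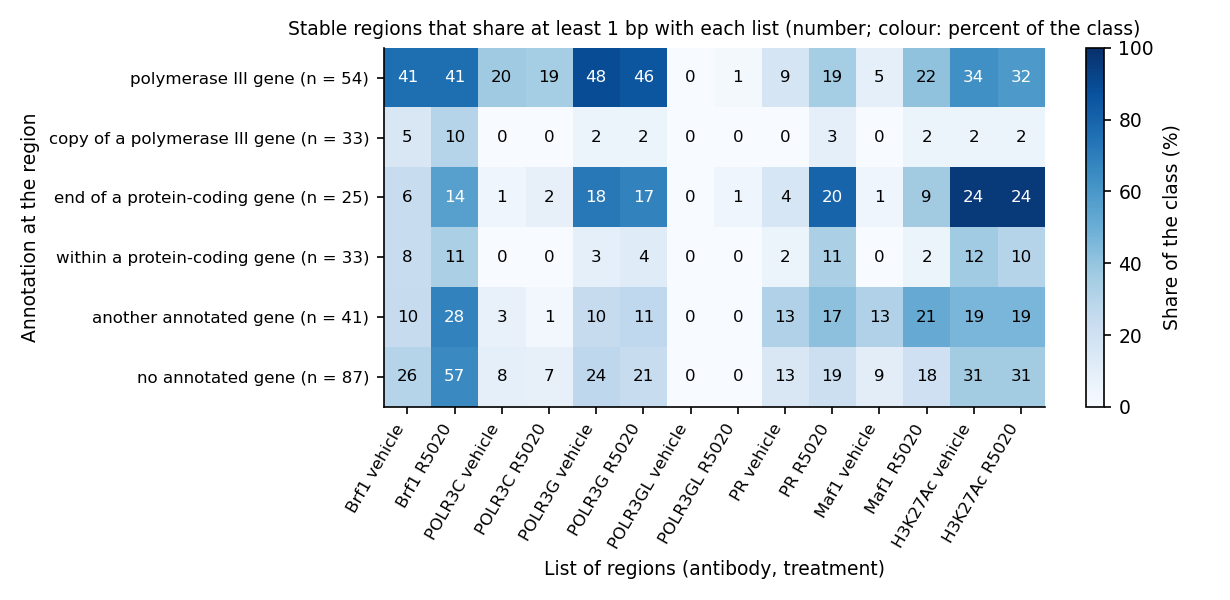
Number of members of each annotation class (rows) that share at least 1 bp with a region of each list (columns), with the share of the class (%) as colour. Ends of protein-coding genes have H3K27Ac at 24 of 25 and R5020 PR at 20 of 25, and copies of polymerase III genes have 2 and 3 of 33. Of all vehicle POLR3A regions, 42% have vehicle H3K27Ac and 30.4% R5020 PR.

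By -log10 q, the members with the strongest R5020 PR regions were DNALI1 (PR fold 56.1), LOC124901138 (53.4), SLC22A5, a carnitine transporter gene (50.3), the region chr14:63749353-63749569 (44.1) and the region chr14:105028565-105028978 (37.3). Their vehicle POLR3A folds were 7.595, 11.5, 3.56, 4.96 and 23.3. None had PR with vehicle, all had H3K27Ac in both lists, and the last alone had Brf1 in both. DNALI1, whose promoter above holds a B box core, had Brf1 in neither list. The strongest R5020 Maf1 regions were at RNVU1-7, a variant U1 spliceosomal RNA gene (Maf1 fold 21.7), at LOC124901138 (14.5), over a pair of neighbouring members in RNA45SN2 that share 1 Maf1 region (10.9), and 100 bp from the U5 RNA gene RNU5B-1 (11.8). RNVU1-7, the region beside RNU5B-1 and 1 of the pair in RNA45SN2 had Maf1 and PR with vehicle too, the other of that pair had vehicle Maf1, and LOC124901138 had neither.

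Of the members, 20 had a vehicle POLR3A fold under 3 (1.30 to 2.70), of which 8 had no annotated gene within 10 kb and 9 lay in arrays. Vehicle PR was at 10 of them and R5020 PR at 0, Maf1 at 9 and 11, and Brf1 at 2 and 16. Among the 253 with a fold of 3 or more, vehicle PR was at 31 and R5020 PR at 89, and Brf1 at 94 and 145. Regions away from tRNA genes that were in the vehicle list alone were split from the members by the R5020 POLR3A list itself. Median vehicle POLR3A folds were 7.69 for members and 4.05 for these regions, and median widths 329 and 199 bp. How far fold and width bear on the differences was not tested. The difference had an interval that excludes 0 in 6 of 14 lists. Those were Brf1 and POLR3G in both treatments, vehicle POLR3C and R5020 PR. Brf1 was at 6 of 108 with vehicle, 29.6 points below the members (members minus these 29.6, 21.5 to 36.2). PR was at 25 of 108 with vehicle, for which members differed by -8.13 points (-17.7 to 0.271), and at 23 with R5020, for which they differed by 11.3 (1.18 to 20.1).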

How the data were processed

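The members and the gene lists were chosen with earlier results of these data known. The submitters' processing notes name cutadapt, Bowtie2, MACS2 and hg38, with no versions, settings or roles, and how the 3 libraries of a group became 1 list, or with which control, is not given in the sources used here. Each deposited list gives a region's start, end and summit, the authors' fold enrichment (a ratio) and the -log10 of its q-value. Both values were used only within a list. Per the file headers nothing is stated, since the lists have none. Regions on chromosomes 1 to 22 and X were read with Python 3.11.15, numpy 2.4.6 and pandas 2.3.3, and sharing at least 1 bp counted as overlap. The overlap and interval computations were tested on simulated data. Shares have Wilson and differences have Newcombe 95% intervals (the paired form between treatments). No p-value is given, since there is 1 list per antibody and treatment.

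Genes came from the RefSeq table of GRCh38.p14, which holds gene spans without exons, so exon, intron and strand are not given. Named regions are every member at a polymerase III gene, the 5 of highest vehicle POLR3A fold in each other class and among those with Brf1 in both treatments, and the 5 of highest -log10 q for R5020 PR and for R5020 Maf1. Others are said to have been chosen after their values were seen. Samples were grouped by title. Alternatives covered the fold, the -log10 q, the overlap, the summit, the list lengths, the distances and the tRNA genes used, and leaving out arrays was added after the data were seen.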

Additional observations from a re-analysis of the deposited data

Results flagged for a closer look

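Outside the chromosomes used here, 39 vehicle POLR3A regions lay on unplaced or other scaffolds, and 15 of them shared sequence with 1 of 227 R5020 regions there, a signal in data that the comparisons did not use. The vehicle fold of these 15 regions ran from 1.36 to 7.75, with a median of 3.49. None lay on chromosome Y, and their neighbouring genes were not analysed here.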

How the results depend on the processing

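Of 187 recomputed values, 161 stayed within the reported interval or within 1.5 times the reported count, 21 did not, and 5 changed the sign of a difference whose interval had excluded 0. A further 12 changed sign where the reported interval included 0. With a POLR3A fold of at least 5, 177 members remained in the count. The members minus tRNA regions then differed by -38.3 points for vehicle Brf1, 7.03 for vehicle PR and 0.207 for vehicle Maf1, and R5020 minus vehicle was 14.7 for Brf1. Requiring 50% of both regions to be shared gave -33.7 for R5020 Brf1, 2.56 and 0.861 for POLR3C with vehicle and R5020 (a changed sign) and 6.96 for vehicle PR, members minus tRNA regions. It gave R5020 minus vehicle differences of 11.7 for Brf1, 3.66 for POLR3G, 1.83 for PR and 1.83 for Maf1. Equal numbers of top partner regions gave -46.3 for R5020 Brf1 against tRNA regions and changed the sign of R5020 minus vehicle for Brf1 (-4.76), PR (-9.16) and Maf1 (-5.13); that setting shortens the R5020 lists by construction. A partner region over the POLR3A summit gave 14.6 and 18.2 for H3K27Ac against tRNA regions with vehicle and R5020. Leaving out the arrays, an alternative chosen after seeing the data, gave -56.5, -39.0 and 6.90 for vehicle Brf1, R5020 Brf1 and vehicle PR against tRNA regions, and 29.7 for PR between treatments. Leaving out arrays and counting RN7SL3 as type 2, also chosen after seeing the data, gave -6.59 in place of -70.6 for R5020 PR and 20.9 in place of 1.0 for vehicle PR, type 2 minus type 3 genes. With 5 kb for gene ends, 39 members lay at one. Counting only 422 numbered tRNA genes gave 276 members. The cause of these shifts was not tested, and the setting with equal numbers changes both the length of a list and the strength of its regions. No paired analysis was possible because each list pools 3 libraries and carries no replicate number, and no replicate could be left out. The depth of the libraries is unknown, so a region missing from a list is not shown to lack the protein.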
